A study of Mus musculus with 32 samples.

Results

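The genes described here encode the subunits of the WAVE regulatory complex: Wasf1, Wasf2 and Wasf3, Abi1 and Abi2, Cyfip1 and Cyfip2, Nckap1, and Brk1. They were chosen by name, and all 9 were present among the 44081 genes of the deposited table of reads on 3′UTRs. Their 3′ ends, taken by gene name, made up 32 of the 74532 ends of a second table in which every 3′ end was counted separately. Among the 6 genes whose use of 3′ ends could be compared within neurons, Abi1 differed most: its dendritic reads fell mainly on the most distal end in 8 of 8 neurons, and its somatic reads mainly on the next end in 5 of those 8, a difference that did not pass adjustment over all genes.

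Hippocampal neurons of C57BL/6 mice at embryonic day 18 were cultured until day 15, when a micropipette was used to part single cells into dendrites and soma, each of which was amplified on its own. The labels give no treatment or engineered allele, and the 16 soma and 16 dendrite libraries were paired by neuron. RNA with a poly(A) tail was amplified in 2 rounds of aRNA synthesis, a linear amplification by in vitro transcription, in 12 neurons and in 3 rounds in 4 neurons. Each library stood for a compartment of a single cultured cell, and how many animals or cultures the neurons came from is not given in the sources used here, so p-values measure the spread between these neurons.

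Between 646521 and 6954420 reads (median 1605714) fell on 3′UTRs in the dendrite libraries and between 925525 and 21169974 (median 6165691) in the soma libraries, and the dendrite library was the shallower of the pair in 15 of 16 neurons. Neuronal markers were present in every library, with 3047 to 13424 CPM (TMM-scaled counts per 1000000 reads of a library) summed over 5 genes in dendrites and 3268 to 11966 in somas. Markers of GABAergic neurons had a median sum of 4033 CPM in dendrites and 9639 CPM in somas, against 131 and 35.6 CPM for glutamatergic markers. Summed astrocyte markers (6 of 6 genes at 10 or more reads in some library) ranged from 0 to 846 CPM in dendrites, with a median of 159, and from 0 to 538 CPM in somas, with a median of 57.5. Microglial sums reached 384 CPM in dendrites (4 of 6 genes at 10 or more reads in some library) and 10.9 CPM in somas (3 of 6), oligodendrocyte sums 606 CPM (5 of 6) and 330 CPM (4 of 6), endothelial sums 44.5 and 129 CPM (2 of 5 in both), and the endothelial marker Cldn5 was at 0 throughout. The part of these markers in the results below was not tested.

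The WAVE complex couples the small GTPase Rac to the Arp2/3 complex, which nucleates branched actin filaments. Each assembly holds a WAVE protein (the product of a Wasf gene), an Abi protein, a CYFIP protein, Nckap1 and Brk1, and stays inactive until Rac binds the CYFIP subunit and frees the Arp2/3-activating tail of WAVE. In neurons the complex is known for shaping growth cones and dendritic spines, and CYFIP proteins also bind the RNA-binding protein FMRP and the cap-binding protein eIF4E.

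Abi1 lies at chr2:22940073-23040241 on the minus strand of GRCm38 (mm10), with the oppositely oriented Pdss1 over its 3′ end in the GENCODE annotation. The reads were counted by strand. The annotated Abi1 transcripts end in 5 clusters when ends closer than 500 nt are joined, the number of Abi1 ends in the table, which are numbered from the most distal. The table gives no coordinates and was built on another annotation, so clusters and ends were set side by side only by their number and order, and were not matched by position. The first cluster, set beside end 1, holds 9 protein-coding transcripts that end between 22940073 and 22940369, and the second, set beside end 2, holds 2 that end at 22940892 and 22941233. The last 30 bases of transcripts from both clusters are shown because the reads on ends 1 and 2 are compared between somas and dendrites below, with any poly(A) signal (AATAAA or ATTAAA, sense strand) in capitals.

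Abi1-206, first cluster, chr2:22940073-22940102: AATAAAaattgcccatcaataaggttgaaa
Abi1-201, first cluster, chr2:22940369-22940398: gtcttttatAATAAActatgctcctatatg
Abi1-203, second cluster, chr2:22940892-22940921: aaaggaaaatcctttacatattgtaaagat
Abi1-215, second cluster, chr2:22941233-22941262: tttttccattcataaatacataagtgaacc

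The signal stood in the last 30 bases of 8 of the 9 transcripts of the first cluster, all but Abi1-205, and of 0 of the 2 of the second. Several of the 9 share 1 window: Abi1-206 with Abi1-209, Abi1-202 with Abi1-208 and Abi1-212, and Abi1-201 with Abi1-204. Of 51209 distinct last 30-base windows of protein-coding transcripts, 42.2% held AATAAA or ATTAAA. That share counts each window once, so it is not in the same unit as the count of transcripts. For comparison, the most distal annotated transcript ends of Wasf1, Wasf3 and Nckap1 are shown, since end 1 of each of these genes took nearly all of its reads.

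Wasf1-202, plus strand, chr10:40938541-40938570: gatgtAATAAAcggttcattttaaaggctc
Wasf3-201, plus strand, chr5:146473586-146473615: catctaAATAAAattacacgtgtaacccta
Nckap1-201, minus strand, chr2:80500512-80500541: AATAAAcactagactgtatcacaccttgaa

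A window without these letters shows only that they were not found in those 30 bases.

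Reads of the WAVE complex genes were found in dendrites of every neuron, but not of every gene. Dendrite libraries held at least 10 reads of 3 to 8 of the 9 genes (median 5) in the 3′UTR table, and soma libraries of 6 to 9 (median 8). The dendrites of neuron 16 held the fewest, with Abi1, Wasf3 and Cyfip2 alone. Levels below are CPM summed over the single 3′ ends of a gene, each counted over the last 500 nt or longer where ends were merged. The number of ends differs between genes, from 1 for Wasf1 to 7 for Cyfip1, so sums of different genes cover windows of different length, and comparisons between genes were repeated on the most-read end of each gene, an alternative chosen after seeing the data. CPM are shares of a library and give no amount of RNA per compartment.

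**Figure D1:**
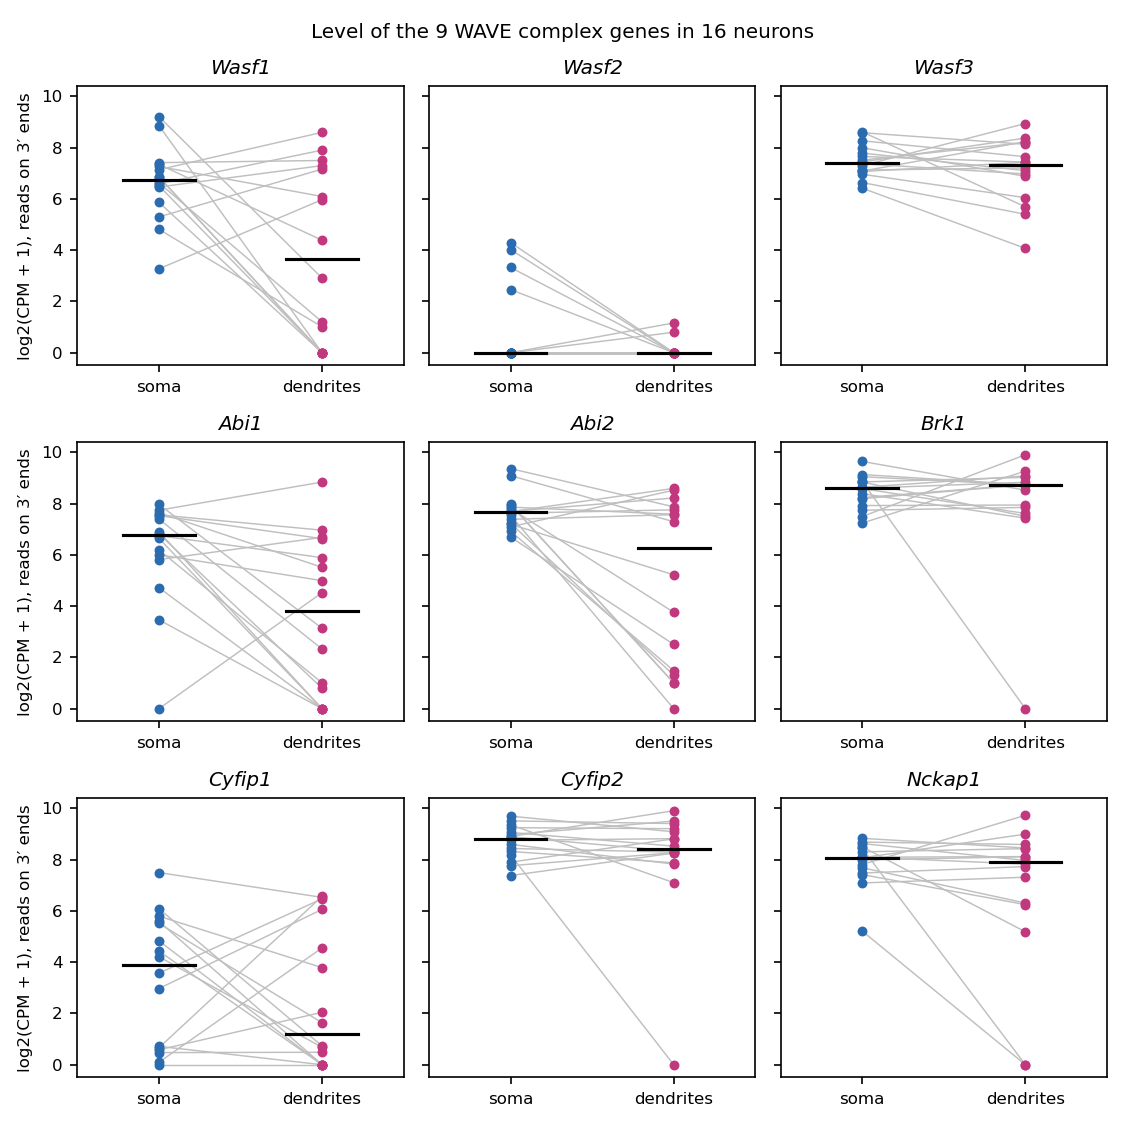
Level of each WAVE complex gene on a log2(CPM + 1) scale, reads summed over single 3′ ends, in the soma (blue) and the dendrites (pink) of 16 neurons. Grey lines join the compartments of a neuron and black bars are medians. Wasf3 overlapped between the compartments. Brk1, Cyfip2 and Nckap1 overlapped apart from dendrites at 0, those of neuron 16 for Brk1, 10 for Cyfip2, and 12 and 16 for Nckap1. Wasf1, Abi1, Abi2 and Cyfip1 were at or near 0 in part of the dendrites. Cyfip1 was also at or near 0 in part of the somas, and Abi1 at 0 in the soma of neuron 12.

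Of the WAVE proteins themselves, Wasf3 was found at 10 or more reads in all 32 libraries, with 15.8 to 491 CPM in dendrites (median 159) and 84.6 to 391 CPM in somas (median 169). The groups overlapped almost completely, and the dendrites were the higher compartment in 6 of 16 neurons, or in 8 of 16 by the 3′UTR table. In a paired fit of that table (edgeR quasi-likelihood test, neuron as a block), Wasf3 had a log2 fold change of dendrites over somas of -0.17 ± 0.67 (SE), adjusted p = 0.877. Few Wasf3 reads were assigned to exons, 187 in all against 21044 on its 3′UTR, so the exon table gave no test of Wasf3. Of 9397 well-covered genes, 69 (0.734%) had as low a ratio.

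Wasf1 ranged from 8.65 to 593 CPM in somas (median 106) and from 0 to 386 CPM in dendrites (median 13.2). Every soma had at least 33 reads, while the dendrites split into 8 libraries with 10 or more reads, reaching 523, and 8 with fewer, of which 5 held none. In 6 neurons the dendrites were the higher compartment, and over the 16 neurons the dendritic percent, the CPM of the dendrites as a percent of the CPM of both compartments, ran from 0 to 87.7 (median 7.28). The log2 fold change on the single Wasf1 end was -3.55 ± 1.67 (adjusted p = 0.110, edgeR). The 3′UTR table held 612 reads of Wasf1 where its single end held 11350 and its exons 11752, and 40 of 9134 well-covered genes (0.438%) had as low a ratio. On those few reads the 3′UTR fit gave -4.13 ± 1.69 (adjusted p = 0.104).

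Wasf2 was close to absent. Its ends held 137 reads over all libraries, with 88 in the soma of neuron 7, at most 1 read in any dendrite library and none in 12 of 16 somas. It did not pass the filter of at least 1 read in at least 16 libraries and was not tested.

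The Wasf genes were compared with each other within each neuron. In dendrites Wasf3 exceeded Wasf1 in 14 of 16 neurons by a mean log2(CPM + 1) difference of 3.36 ± 3.27 (SD), with p = 0.000946 (exact two-sided sign-flip permutation test over 16 neurons) and an adjusted p of 0.00189 over 6 paralog comparisons. In somas the difference was 0.84 ± 1.89, in the same direction in 12 of 16 neurons, and did not pass (adjusted p = 0.118, the same exact test). On the most-read end of each gene these differences were 3.36 (adjusted p = 0.00189, exact test) and 0.83, of which the second did not pass. By exon counts the direction was the other way, with 187 reads of Wasf3 against 11752 of Wasf1 over all libraries. Which of the 2 genes was higher therefore depended on the regions counted. Wasf2 held too few reads for such a comparison.

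The Abi proteins are adaptors with an SH3 domain that hold WAVE in the complex and bind Abl kinases. Abi2 ranged from 103 to 660 CPM in somas (median 201) and from 0 to 386 CPM in dendrites (median 96.2). All 16 somas but 10 of 16 dendrite libraries had at least 10 reads on its ends, and the dendrites were the higher compartment in 5 neurons. Its log2 fold change was -1.96 ± 0.90 (adjusted p = 0.137, edgeR).

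Abi1 ranged from 0 to 250 CPM in somas (median 110) and from 0 to 458 CPM in dendrites (median 14.9). In 15 of 16 somas and 9 of 16 dendrite libraries it had at least 10 reads. In neurons 1, 12 and 16 the dendrites were higher, in neuron 12 because its soma held no Abi1 read while its dendrites held 43 reads. Of the 14 neurons with 100 or more Abi1 reads in the soma, 6 had fewer than 10 in the dendrites and 3 had none. A count of 0 in those 3 allowed up to 2.52 to 3.36 CPM before scaling (3 counts of the library, counting error only). The log2 fold change was -3.16 ± 1.31 (adjusted p = 0.108, edgeR). In somas Abi2 exceeded Abi1 in 13 of 16 neurons, by 1.5 ± 2.49 on the log2(CPM + 1) scale (adjusted p = 0.0143, exact sign-flip permutation test). In dendrites the difference was 1.40 ± 4.48 (adjusted p = 0.229, the same exact test). Between the ends most read over all libraries, end 2 of both genes, it was 1.99 in somas (adjusted p = 0.00776, exact test) and 3.43 in dendrites (adjusted p = 0.00650, exact test). In dendrites, however, end 1 held 88.9% of the Abi1 reads, and end 2 held 11.0% and was at 0 in 10 of 16 libraries. The dendritic value on end 2 leaves out most dendritic Abi1 reads, so it cannot show which gene was higher there.

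The CYFIP proteins are the Rac-binding subunits. Cyfip2 ranged from 165 to 829 CPM in somas (median 452) and from 0 to 961 CPM in dendrites (median 345), with no read in the dendrites of neuron 10 alone. Its log2 fold change was -0.09 ± 0.60 (adjusted p = 0.931, edgeR), and 6 neurons had the higher level in dendrites by single ends and 8 by the 3′UTR table. Cyfip1 was much lower, with 0 to 180 CPM in somas (median 14.2) and 0 to 94 CPM in dendrites (median 1.39). Its readings were scattered, with neurons such as 5 and 9 holding 76 and 135 reads in the dendrites against 1 read in the soma, and neurons 10 and 13 holding 1 and 2 against 612 and 448. The log2 fold change of Cyfip1 was -1.48 ± 1.40 (adjusted p = 0.456, edgeR). Cyfip2 exceeded Cyfip1 in 16 of 16 somas by 5.37 ± 2.87 (adjusted p = 0.000183) and in 15 of 16 dendrite libraries by 5.60 ± 3.21 (adjusted p = 0.000183) on the log2(CPM + 1) scale, both by the exact sign-flip permutation test. On the most-read ends the differences were 5.32 and 5.70, with the same adjusted p from the exact test. In the annotation the oppositely oriented Nipa2 lies over the 3′ end of Cyfip1.

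Nckap1 is the large scaffold that pairs with CYFIP, and it ranged from 36.1 to 455 CPM in somas (median 270) and from 0 to 848 CPM in dendrites (median 238). The dendrites of neurons 12 and 16 held no Nckap1 read, while 14 dendrite libraries held at least 10. Its log2 fold change was -0.57 ± 0.74 (adjusted p = 0.595, edgeR), and 7 neurons had the higher level in dendrites. Exons took 4817 reads of Nckap1 against 32902 on its 3′UTR.

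Brk1, the smallest subunit, ranged from 150 to 801 CPM in somas (median 385) and from 0 to 959 CPM in dendrites (median 424). Dendrites were the higher compartment in 9 of 16 neurons, and the dendrites of neuron 16 alone held no read. Its log2 fold change of -0.0062 ± 0.61 (adjusted p = 0.992, edgeR) was the nearest to 0 among the WAVE complex genes.

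At the gene level, 0 of the 8 WAVE complex genes tested were called higher in somas and 0 higher in dendrites at an adjusted p of 0.05 or less (edgeR), where 5.71% and 0.827% of the 10880 genes tested were called. At an unadjusted p under 0.05, 3 of 8 were lower in dendrites (Abi1, Abi2 and Wasf1), as were 26.7% of all genes. DESeq2, with the same pairs and filter, called these 3 genes higher in somas, where it called 46.2% of all genes, and 0 higher in dendrites, where it called 4.26%. By exon counts 0 of 7 genes were called higher in somas (edgeR), beside 2.62% of all genes. All 8 fold changes were below 0, with a median of -1.03 (log2), beside 78.8% below 0 and a median of -1.49 for all genes tested, and 5 of 8 stood above that median.

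Set against the median gene, with dendrites rescaled so that its log2 fold change was near 0, the fold changes of Wasf3, Cyfip2, Nckap1 and Brk1 turned to 1.32, 1.41, 0.92 and 1.49, none of them called. Scaled to the ERCC spike-in reads in the 14 neurons whose labels give a spike-in dilution above 0, all 8 were called higher in somas, with a median log2 fold change of -3.67 beside -4.0 for all genes. The side on which Wasf3, Cyfip2, Nckap1 and Brk1 fell therefore depended on the scaling. Abi1, Abi2, Wasf1 and Cyfip1 were below 0 under each scaling tried. With the median gene near 0, however, they stood at -1.70, -0.47, -2.93 and -0.023, none of them called, so Cyfip1 lay close to the median gene.

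**Figure D2:**
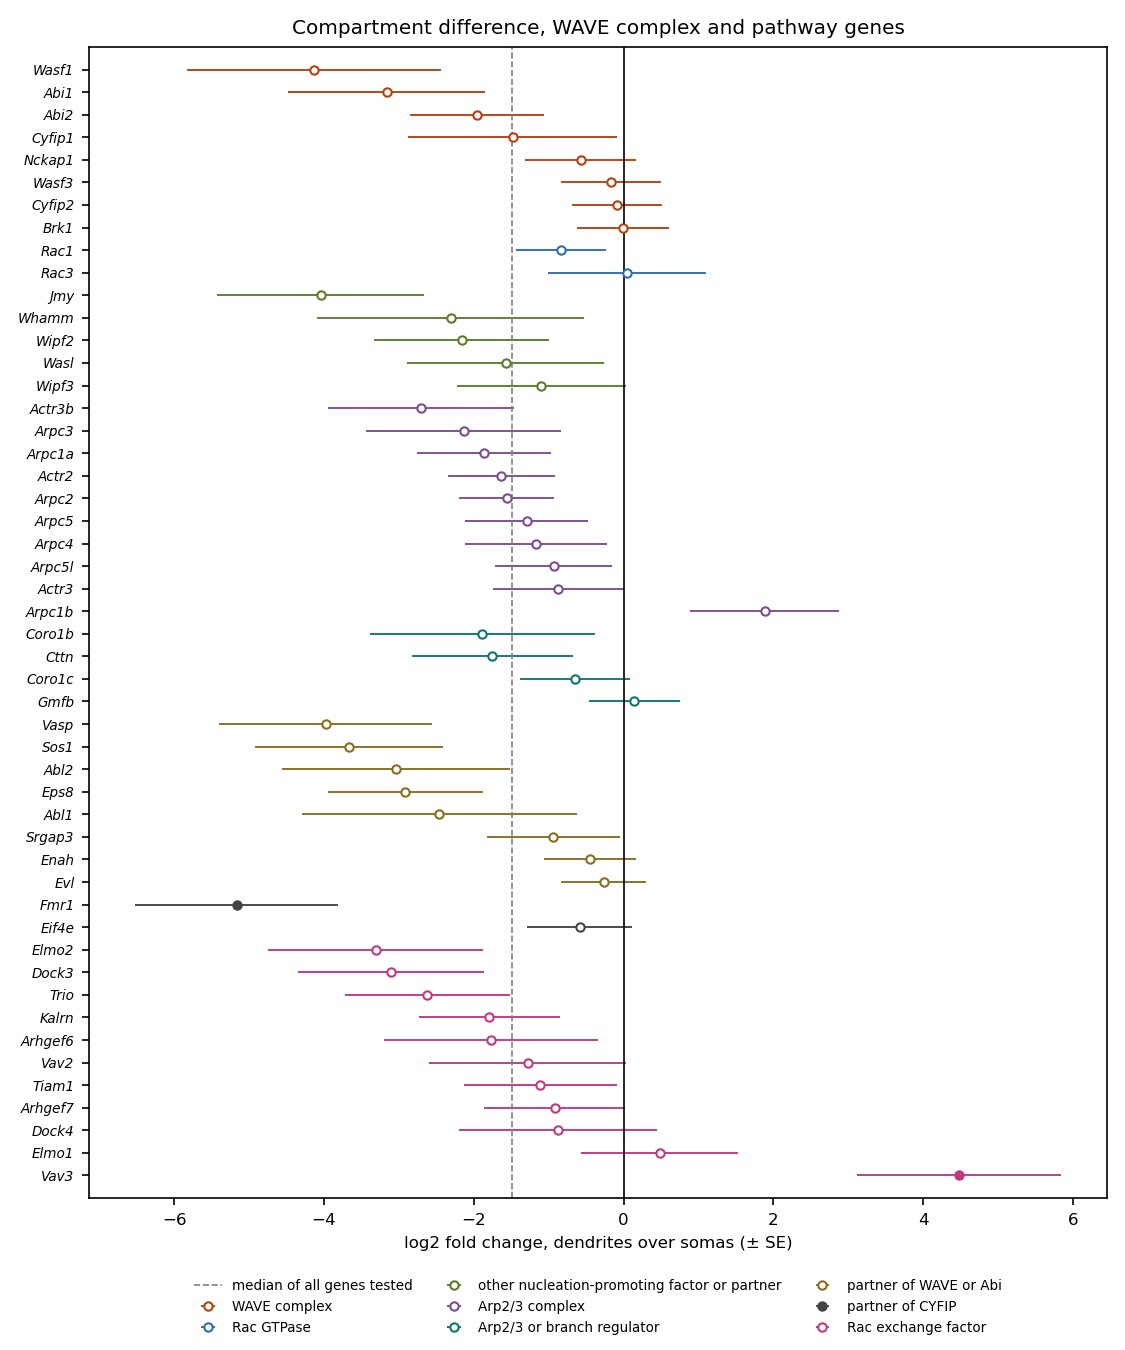
Log2 fold change of dendrites over somas (point) with its standard error (bar) from the paired edgeR fit for 8 WAVE complex genes and 42 pathway genes, coloured by role. Filled points passed an adjusted p of 0.05, and the dashed line is the median of all genes tested, -1.49. Of the genes drawn, Fmr1 and Vav3 are filled.

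The compartments were then compared end by end. Of the 32 ends, 5 had no read in any library, 11 passed the filter and 2 were called higher in somas (edgeR, adjusted p of 0.05 or less), where 16.9% of the 10652 ends tested were called. None of the 11 was called higher in dendrites, where 0.723% of all ends were. Both called ends belong to the Abi genes. Abi1 end 2 held 125 reads in dendrites and 5976 in somas, with a median of 0 and a maximum of 61 per dendrite library against 289 and 2063 per soma library. It was higher in the soma in 15 of 16 neurons, with a log2 fold change of -6.89 ± 1.53 (adjusted p = 0.00685, edgeR). Abi1 end 1 held 1010 reads in dendrites and 3416 in somas, and its log2 fold change of -2.33 ± 1.35 did not pass (adjusted p = 0.185). The other called end was Abi2 end 1, with 30 reads in dendrites and 1495 in somas and a log2 fold change of -4.80 ± 1.57 (adjusted p = 0.0340, edgeR). The call on Abi2 end 1 was lost (adjusted p up to 0.0832) when any of 10 of the neurons, 1, 3, 4, 7, 9, 10, 12, 14, 15 or 16, was left out, and with the 2-round neurons alone. Without the neuron block neither end was called, with log2 fold changes of -2.68 for Abi1 end 2 and -4.02 for Abi2 end 1.

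The third Abi1 end, beside which stands a cluster of retained-intron transcripts ending at chr2:22941808-22941812, held 138 reads in somas and none in dendrites. Ends 4 and 5 held 2 reads and none.

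Abi1 was further compared by its distal fraction, the reads on end 1 divided by the reads on ends 1 and 2, in the 8 neurons with at least 10 such reads in both compartments. In the dendrites of these neurons end 1 took from 72.1% (neuron 1, 158 of 219 reads, 95% exact binomial interval 65.7 to 78.0) to 100% (4 neurons), with a median of 96.4%. In their somas it took from 1.57% (neuron 1, 4 of 255 reads, interval 0.429 to 3.97) to 90.8% (neuron 5, 99 of 109 reads, interval 83.8 to 95.5), with a median of 31.4%. The intervals cover counting error alone, since amplified reads without molecular identifiers are not independent molecules. The dendrites were above the soma in 8 of 8 neurons, although as groups they overlapped through the soma of neuron 5.

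The mean distal fraction of Abi1 was 0.911 ± 0.111 (SD, n = 8) in dendrites and 0.424 ± 0.296 in somas, a difference of 0.487 ± 0.272. The exact two-sided Wilcoxon signed-rank test gave p = 0.00781, the smallest that 8 pairs allow, and the adjusted p over 3508 genes was 0.818. Of these genes 8.44% had p under 0.1, with the distal end higher in dendrites in 5.42% and 0 genes at an adjusted p of 0.05 or less. A mean change at least as large as that of Abi1 was seen in 7 of the 3508 genes, itself included, and among 338 genes tested over 8 neurons 1 (0.296%), Abi1, was higher in dendrites in all 8. With no difference, 8 pairs would all lie on the same side, up or down, at the exact signed-rank p of 0.00781. The count of 1 among 338 therefore does not by itself set Abi1 apart.

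**Figure D3:**
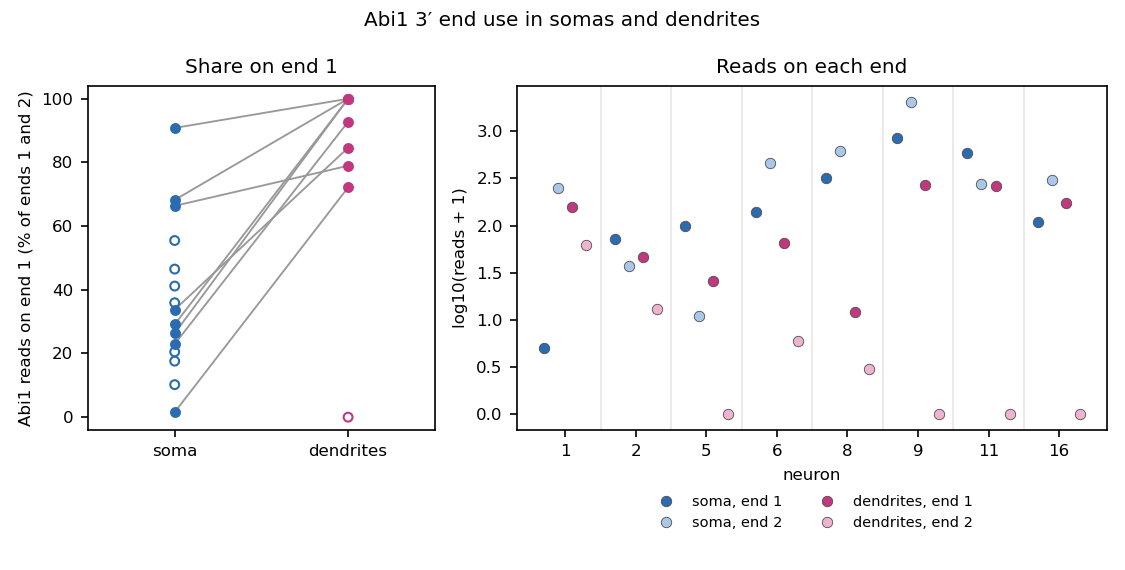
Left, percent of Abi1 reads on end 1, the most distal, among ends 1 and 2 in somas and dendrites, with lines joining the 8 neurons with at least 10 reads in both compartments and open circles for libraries whose partner had fewer. Right, log10(reads + 1) on each end in these 8 neurons, where the dendritic reads on end 2 reach 61 and those of the soma 2063. All 8 lines rise, and the open circle at 0% is the dendrites of neuron 12.

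Libraries outside these pairs went both ways. The dendrites of neuron 12 held 43 Abi1 reads, all on end 2 (0% on end 1, interval 0 to 8.22), and its soma none, so that neuron was not in the pairs. The 7 further somas with enough reads had 10.2% to 55.5% on end 1, and 11 of all 15 were under 50%. Over all 9 dendrite and 15 soma libraries with at least 10 reads, unpaired, the mean distal fraction was 0.809 and 0.378, a difference of 0.432 (p = 0.00202, permutation test). In the 6 paired neurons with 2 rounds of amplification the mean change was 0.510, higher in dendrites in 6 of 6 (p = 0.0312, exact signed-rank test). The 2 paired neurons with 3 rounds changed by 0.706 and 0.126.

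Of the 6 genes that could be tested for distal fraction, 2 had p under 0.1. Beside Abi1 this was Wasf3, with a mean change of 0.00307 ± 0.00682 (n = 16, p = 0.0312, exact signed-rank test, adjusted p = 0.906). Its distal fraction was 1.00 in dendrites and 0.997 in somas, so the change rested on 46 reads on end 2 in all. It was higher in dendrites in 6 neurons, lower in 1 and equal in 9.

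Abi2 had 92.6% of all its reads on end 2. End 1 took a mean fraction of 0.0578 ± 0.149 in dendrites and 0.0789 ± 0.116 in somas over 10 neurons, a change of -0.0211 ± 0.212 (p = 0.426, exact signed-rank test). Cyfip2 put 82.0% of its reads on end 1, with a mean distal fraction of 0.854 ± 0.146 in dendrites and 0.818 ± 0.213 in somas over 15 neurons (p = 0.720, exact signed-rank test). Its change scattered widely between neurons, with an SD of 0.273, and 6 neurons rose while 9 fell.

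Nckap1 had 98.9% of its reads on end 1 and a change of 0.00327 ± 0.0111 over 14 neurons (p = 0.232, exact signed-rank test). Counted against all of its other ends together the change was 0.00959, with 11 of 14 neurons higher in dendrites (p = 0.0161, exact signed-rank test). Brk1 had 99.5% of its reads on end 2, none on end 1 in any dendrite library and 209 on end 1 in 2 somas, and its change was -0.00427 ± 0.0119 (n = 15, p = 0.5, exact signed-rank test). Wasf1 has a single end, and Cyfip1 and Wasf2 had too few neurons with reads.

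**Figure D4:**
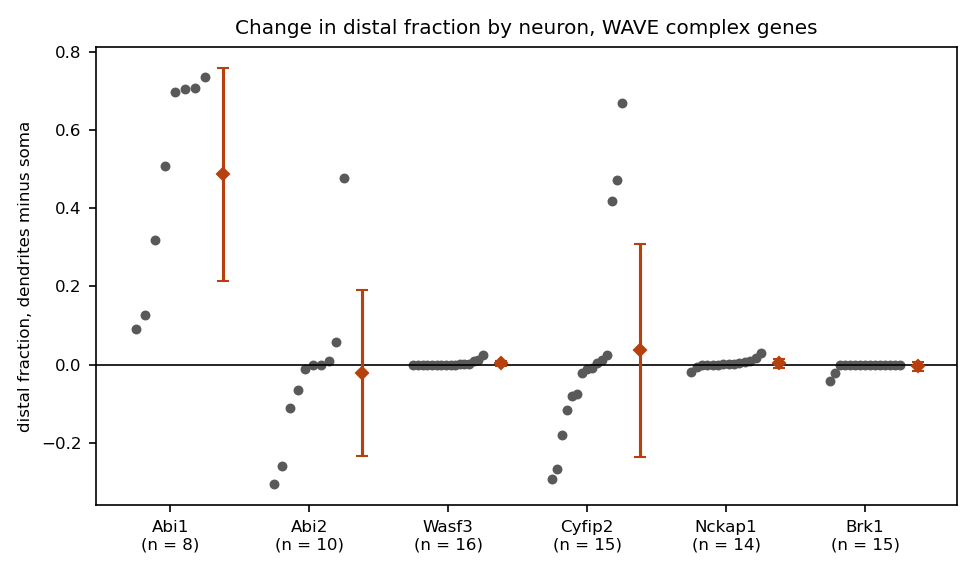
Change in distal fraction (dendrites minus soma) in each neuron with at least 10 reads in both compartments, for the 6 WAVE complex genes tested. Each grey point is a neuron, and the diamond and bar are the mean and SD. For Abi1 all 8 points lie above 0, while Abi2 and Cyfip2 scatter to both sides and Wasf3, Nckap1 and Brk1 stay near 0.

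No difference between the numbers of amplification rounds was detectable. The test of the compartment difference between 3-round and 2-round neurons called 0 of the 8 genes (edgeR), with 0 at an unadjusted p under 0.05, and 0 of 10880 genes passed (0.0%). DESeq2 called 0 of the 7 members to which it gave an adjusted p, and 0.45% of all genes. The differences in log2 fold change, 3 rounds minus 2, ran from -1.35 ± 1.99 for Abi2 to 2.50 ± 4.30 for Wasf1, so effects of several log2 units could have been missed with 4 neurons in the smaller group.

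Likeness to Abi1 in level was measured across libraries. The Pearson correlation of log2(CPM + 1) with Abi1 over the 32 libraries was 0.45 for Cyfip1, 0.20 for Cyfip2, 0.03 for Abi2, 0.03 for Wasf3, -0.08 for Wasf1, -0.13 for Nckap1 and -0.31 for Brk1. The genes most like Abi1 by that measure were Gak (0.77), a kinase of clathrin uncoating, Ube2f (0.76), an E2 enzyme for NEDD8, Ankmy2 (0.74), Mcee (0.73), an enzyme of propionate breakdown, and Setdb1 (0.73), a histone methyltransferase. These are descriptions over libraries that share depth and compartment.

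The pathway on either side of the complex was read from a list of 51 genes, of which 42 were tested, 1 was called higher in somas and 1 higher in dendrites (edgeR, background 5.71% and 0.827%). Of the 42, 37 had a log2 fold change below 0, with a median of -1.57 beside -1.49 for all genes, beside 78.8% of all genes below 0. An unadjusted p under 0.05 was found for 13 of the 42 (31.0%), beside 30.2% of all genes tested. DESeq2 called 22 of the 42 higher in somas and 2 higher in dendrites, beside 46.2% and 4.26% of all genes.

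The gene called higher in somas was Fmr1, which encodes the CYFIP partner FMRP. It had a median of 50.4 CPM in somas and 1.20 CPM in dendrites, at least 10 reads in 14 somas and 2 dendrite libraries, and a log2 fold change of -5.16 ± 1.35 (adjusted p = 0.0203, edgeR). The call on Fmr1 was lost without neuron 16 (adjusted p = 0.0555), with the median gene near 0 (0.0805), with no filter (0.0603), by exon counts (0.101), without the neuron block (0.302, log2 fold change -2.12), and with the 2-round (0.0839) or 3-round (0.845) neurons alone. The other CYFIP partner, Eif4e, which encodes the cap-binding protein, had 262 CPM in somas and 175 CPM in dendrites (medians) and a log2 fold change of -0.59 ± 0.70 (adjusted p = 0.556).

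The gene called higher in dendrites was Vav3, a Rac exchange factor, with a log2 fold change of 4.48 ± 1.36 (adjusted p = 0.0394, edgeR). It rested on 371 reads in all, at 10 or more in 5 dendrite libraries and in 0 somas, and was the higher in dendrites in 11 neurons. The call on Vav3 was lost when any of 10 neurons was left out. Without neuron 1, 8, 10, 12, 13, 14 or 16 it did not pass (adjusted p up to 0.0844, edgeR). Without neuron 3, 4 or 6 Vav3 did not pass the read filter and was not tested. The call was also lost with no filter (0.163) and with the 3-round neurons alone (0.904). Vav3 did not pass the filter with at least 10 reads, 2-round neurons alone or spike-in scaling either. The most abundant of the other exchange factors, Arhgef7, Kalrn and Tiam1, had log2 fold changes of -0.92, -1.79 and -1.11, none of which passed. Of the Rac GTPases that switch the complex on, Rac1 had 394 CPM in somas and 244 CPM in dendrites (medians) and a log2 fold change of -0.83 ± 0.60 (adjusted p = 0.327), and Rac3 had 31.3 and 41.3 CPM with 0.05 ± 1.06 (adjusted p = 0.981). Rac2, the form of blood cells, had 1 read.

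For the Arp2/3 complex, 0 of 10 genes tested were called (edgeR), 9 had a log2 fold change below 0, beside 78.8% of all genes, and 4 an unadjusted p under 0.05, beside 30.2%. The most abundant, Arpc2, Arpc5l and Actr2, had log2 fold changes of -1.56, -0.93 and -1.63, close to the median gene. The exception was Arpc1b, with 259 reads in all, a log2 fold change of 1.89 ± 0.99 (adjusted p = 0.186, edgeR) and a higher level in dendrites in 13 neurons. Among Arp2/3 regulators, Gmfb, a factor of branch removal, had 763 CPM in dendrites and 504 CPM in somas (medians) with a log2 fold change of 0.14 ± 0.60 (adjusted p = 0.883), and Coro1c and Cttn had -0.65 and -1.75. Other nucleation-promoting factors or their partners, Wasl, Wipf3 and Wipf2, had -1.57, -1.10 and -2.16, and the actin regulators Enah and Evl and the Rac GTPase-activating protein Srgap3, which bind WAVE or Abi, had -0.45, -0.26 and -0.94. None of these passed. Abi3 and Nckap1l, the blood-cell relatives of Abi1 and Nckap1, had 197 and 2 reads and were not tested.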

How the data were processed

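The authors trimmed adapters and poly(A), aligned the stranded reads to mm10 with STAR 2.4.0 (per the labels), and counted uniquely mapped reads by strand with VERSE. The deposited counts, raw whole numbers, are per gene over the union of its 3′UTRs, per single 3′ end over the last 500 nt with ends closer than 500 nt merged, and per gene over exons with ERCC spike-ins. Here genes and ends that had 1 read or more in 16 or more of the 32 libraries were tested with edgeR 4.0.16 in R 4.3.3 (TMM scaling, robust quasi-likelihood, neuron as a block, Benjamini-Hochberg over all features, adjusted p of 0.05 or less). DESeq2 1.42.0 was an alternative, and the fits and the distal fraction test were tested on simulated data. The distal fraction used the top 2 ends of a gene and neurons with at least 10 reads in both compartments, at least 5 neurons, and an exact signed-rank test called at p under 0.1, the threshold of the study. CPM were TMM-scaled, with a pseudocount of 1 on the log2 scale, and paralogs were compared by exact sign-flip tests added after the files were examined, over all ends and over the most-read end of each gene. Sequences and positions came from the GENCODE transcripts of GRCm38. Neurons pair the libraries because both compartments came from the same cell, and deviations from the group means correlated by 0.0887 ± 0.0772 (SD, 16 pairs) within neurons and by -0.0056 ± 0.0526 between neurons. No 2 libraries held identical counts. The named genes are all members and their ends, the pathway genes called and up to 3 further genes of each role with the highest mean level, and the 5 genes most correlated with Abi1. Arpc1b was named in addition, as the Arp2/3 gene with a fold change above 0. The members and lists were chosen with earlier results of these data known. Alternatives were other scalings, filters, tests, exon counts, no block, subsets by rounds and leaving out each neuron.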

Additional observations from a re-analysis of the deposited data

How the results depend on the processing

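Genes called among the members (0 higher in somas) rose to 3 with DESeq2 and to 8 with spike-in scaling, and the median log2 fold change moved from -1.03 to -3.67 with spike-in scaling and to 0.45 with the median gene set near 0. This median was -0.24 with at least 10 reads (7 genes tested), -0.46 with 3 rounds alone and -0.048 without the replicate block. Pathway genes called (2) became 24 with DESeq2, 33 with spike-in scaling, 5 with median-of-ratios scaling, 1 with the median gene near 0, at least 10 reads or exon counts, and 0 with no filter, 2 rounds alone or 3 rounds alone. Member 3′ ends called (2) became 1 with at least 10 reads and 1 with 2 rounds alone. Over all genes, the calls higher in somas and in dendrites were 621 and 90 in the paired edgeR fit, 5029 and 463 with DESeq2, 92 and 548 with the median gene near 0, 6267 and 7 with spike-in scaling, 181 and 88 with at least 10 reads, and 257 and 98 with exon counts.

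Without the replicate block, which ignores the pairing by neuron, 1 pathway gene, 0 member ends and 1 gene in the distal fraction test (Abi1) were called, and all-gene calls were 77 and 157. The unblocked log2 fold changes that turned direction were 0.094 for Wasf3, 0.24 for Cyfip2, 0.25 for Nckap1, 0.40 for Brk1, 0.18 for Abi1 end 1 and 0.014 for Brk1 end 2. Abi1, Abi2, Wasf1 and Cyfip1 kept their direction at -0.93, -0.56, -0.19 and -0.31, against -3.16, -1.96, -4.13 and -1.48 with the block. Other turns of direction, none of them called, were Wasf3, Cyfip2, Nckap1 and Brk1 with the median gene near 0 (1.32, 1.41, 0.92 and 1.49), Wasf3, Cyfip2 and Brk1 with at least 10 reads (0.18, 0.25 and 0.31), Brk1 end 2 and Cyfip2 end 1 with at least 10 reads (0.12 and 0.087), Cyfip2 and Brk1 with exon counts (0.33 and 0.38), Brk1 and its end 2 with 2 rounds alone (0.093 and 0.037), and Cyfip2 with 3 rounds alone (0.16). The cause of these moves was not tested.

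Leaving out each neuron in turn gave 0 to 1 members called higher in somas (1, Wasf1, without neuron 5), 0 called higher in dendrites, 1 to 2 ends, 2 to 3 genes in the distal fraction test, 0 to 5 pathway genes and a median from -1.27 to -0.45. Log2 fold changes then ran from -0.16 to 0.46 for Brk1, -0.18 to 0.20 for Cyfip2, -0.31 to 0.20 for Wasf3, -0.28 to 0.19 for Brk1 end 2 and -0.29 to 0.16 for Cyfip2 end 1, and changes in distal fraction from -0.0764 to 0.0106 for Abi2 and -0.00919 to 0.0595 for Cyfip2. The Abi1 change stayed between 0.451 and 0.543, with exact p from 0.00781 to 0.0156.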
